A study of Ictidomys tridecemlineatus with 31 samples.

Results

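The mRNAs of the cytosolic ribosomal proteins (RPs) were followed in the kidneys of 13-lined ground squirrels through the hibernation year. A row of the authors' expression table was taken as an RP row when its gene symbol began with Rpl or Rps followed by a number, or was Rplp0 to Rplp2 or Rpsa, and S6 kinases were left out. This gave 109 rows, and the row with the highest mean was kept for each symbol, which left 83 genes of the 12863 in the table. Of the 83, 51 carried a large subunit symbol and 32 a small subunit symbol. By general knowledge 76 of them are core proteins of the ribosome, 46 of the large and 30 of the small subunit, and Rps20 was the 1 core symbol that the rule covers but that had no row here. The other 7 symbols matched the rule but are no core RPs. They are the paralogs Rpl7l1, Rpl22l1, Rpl26l1, Rpl36al and Rps27l, the gene Rps19bp1, whose product binds Rps19 and is not an RP, and RPL21P28, a row that carries the name of a human pseudogene.

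Each ribosome joins a large subunit, which forms peptide bonds, to a small subunit, which reads the mRNA. RPs are made in equal amounts, are imported into the nucleolus, and are fitted onto the ribosomal RNA with the help of biogenesis factors that then leave. RP mRNAs share a pyrimidine tract at their 5′ end (the TOP motif), through which mTORC1 and LARP1 set their translation and stability, so that their protein output can change without a change in mRNA level. During torpor, when a hibernator's body is cold, protein synthesis is known to come nearly to a stop, and it resumes when the animal rewarms.

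The 31 kidneys, each from a different animal of either sex, fell into 6 states. Animals in summer active (SA, n = 5) were homeothermic and fattening in August, and those in spring dark (SpD, n = 5) were homeothermic in the cold, dark room after their hibernation had ended. The 4 states of the hibernation season were interbout aroused (IBA, n = 5), shortly after rewarming, entrance (Ent, n = 5), cooling into torpor, the early arousing group (EAr, n = 5), still cold, and late arousing (LAr, n = 6), further along in rewarming. Body temperature was followed by iButton and radiotelemetry. No drug treatment or genetic change was described, apart from isoflurane anaesthesia of all animals before the kidneys were taken. The age of the animals was not given in the sources used here. Experiment 1 (TruSeq libraries, 9 animals) held 3 animals each of IBA, Ent and SpD, and experiment 2 (Nugen libraries, 22 animals) held the rest, including every SA, EAr and LAr animal. Values are the authors' batch-corrected rlog values, library-size normalized levels on the log2 scale in which 1 unit is a doubling, so levels of different genes are not compared here. No counts came with these values, and their depth is therefore unknown.

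Differences were tested with limma across all genes, with state, sex and experiment as terms, in 29 animals. LAr animal 113 and SA animal 137, which the study left out of its tests, were left out here too and are given apart. A gene was called at a Benjamini-Hochberg adjusted p (q) under 0.05. Of the proximal tubule markers 5 of 5 had a row, as had 3 of 3 fibroblast and 3 of 3 macrophage markers, while no marker of erythroid cells or neutrophils had one. A row only means that a gene passed the authors' filter under a matching symbol, so a missing row does not show that a cell type was absent. Animals are named below by state and animal number. In whole-tissue RNA, fewer cells of a type and less RNA per cell cannot be told apart.

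RP mRNAs moved up and down together from animal to animal more than from state to state. The mean level of the 76 core RPs in the SA animals was 12.85 (138), 13.03 (139), 13.18 (140) and 13.30 (141), and 13.20 in the left-out SA 137. In IBA it was 12.98 (75), 13.04 (69), 13.19 (171), 13.26 (104) and 13.43 (70). In Ent it was 13.08 (167), 13.14 (155), 13.16 (62), 13.23 (64) and 13.74 (66). Ent 66 stood far above the other Ent animals, and IBA 70 was the highest of its group. The arousing animals lay close to each other, at 13.09 to 13.27 in EAr and 13.18 to 13.27 in LAr, with the left-out LAr 113 at 13.33. In SpD the level was 12.97 (77), 13.03 (80), 13.04 (83), 13.09 (130) and 13.26 (84). The ranges of the states overlapped, and SA 138 was the lowest and Ent 66 the highest of the 29 animals.

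**Figure D1:**
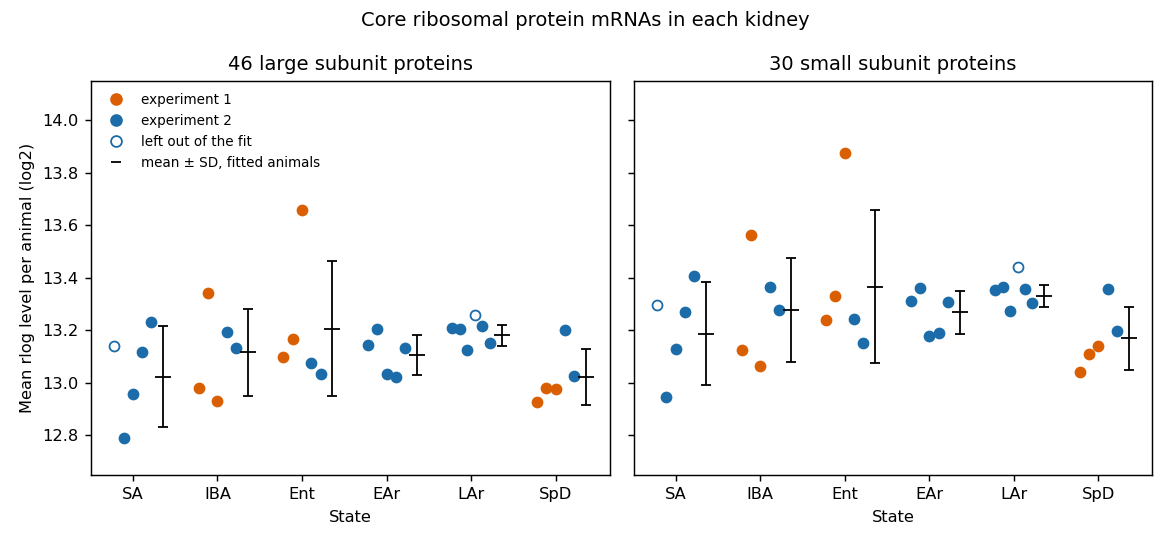
Mean rlog level (log2) of the 46 large subunit (left) and 30 small subunit (right) core RPs in each kidney, by state. Filled points are fitted animals coloured by experiment, open points are LAr 113 and SA 137, and bars give the mean ± SD of the fitted animals. Ent 66 and IBA 70, both of experiment 1, stand above their groups in both panels, and the states overlap.

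Expressed as state means, the core RP level was 13.09 ± 0.19 in SA (SD, n = 4), 13.18 ± 0.18 in IBA (n = 5), 13.27 ± 0.27 in Ent (n = 5), 13.17 ± 0.08 in EAr (n = 5), 13.24 ± 0.04 in LAr (n = 5) and 13.08 ± 0.11 in SpD (n = 5). State accounted for 18.8% of the variance of this mean over the 29 animals. Of the 76 core RPs, 55 had their highest state mean in Ent and 19 in LAr, and 37 had their lowest in SpD and 33 in SA. This order rested in part on Ent 66 and IBA 70. Without these animals the means of IBA and Ent were 13.12 ± 0.13 and 13.15 ± 0.06 (SD, n = 4 each), 66 of the 76 were highest in LAr and 1 in Ent, and 32 were lowest in SA and 32 in SpD.

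Both subunits followed nearly the same course. The large subunit mean ranged over 0.87 and the small subunit mean over 0.93 log2 units in the 29 animals. The small minus large difference stayed between 0.12 and 0.22. IBA 70 stood 0.35 above its group in the small and 0.28 in the large subunit mean. The small minus large difference was highest in IBA 70 and Ent 66, at 0.22 each. By state this difference was 0.16 ± 0.01 in SA (SD, n = 4), 0.16 ± 0.04 in IBA, 0.16 ± 0.04 in Ent, 0.16 ± 0.01 in EAr, 0.15 ± 0.01 in LAr and 0.15 ± 0.02 in SpD (n = 5 each). These state means differed by less than the spread between animals. A shared shift of all core RPs took up 81.4% of the core RPs' squared deviations of animals from their state means, and 73.1% without Ent 66 and IBA 70. The same share was 34.1% among 77 mitochondrial RPs, 33.6% among 17 translation factor and other TOP mRNAs and 9.15% among 90 ribosome biogenesis factors. These shares are a description that depends on list length and level. Over all genes it was 0.216%, but library-size normalization keeps a shift over all genes small in any animal. That value is therefore no baseline for the lists.

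**Figure D2:**
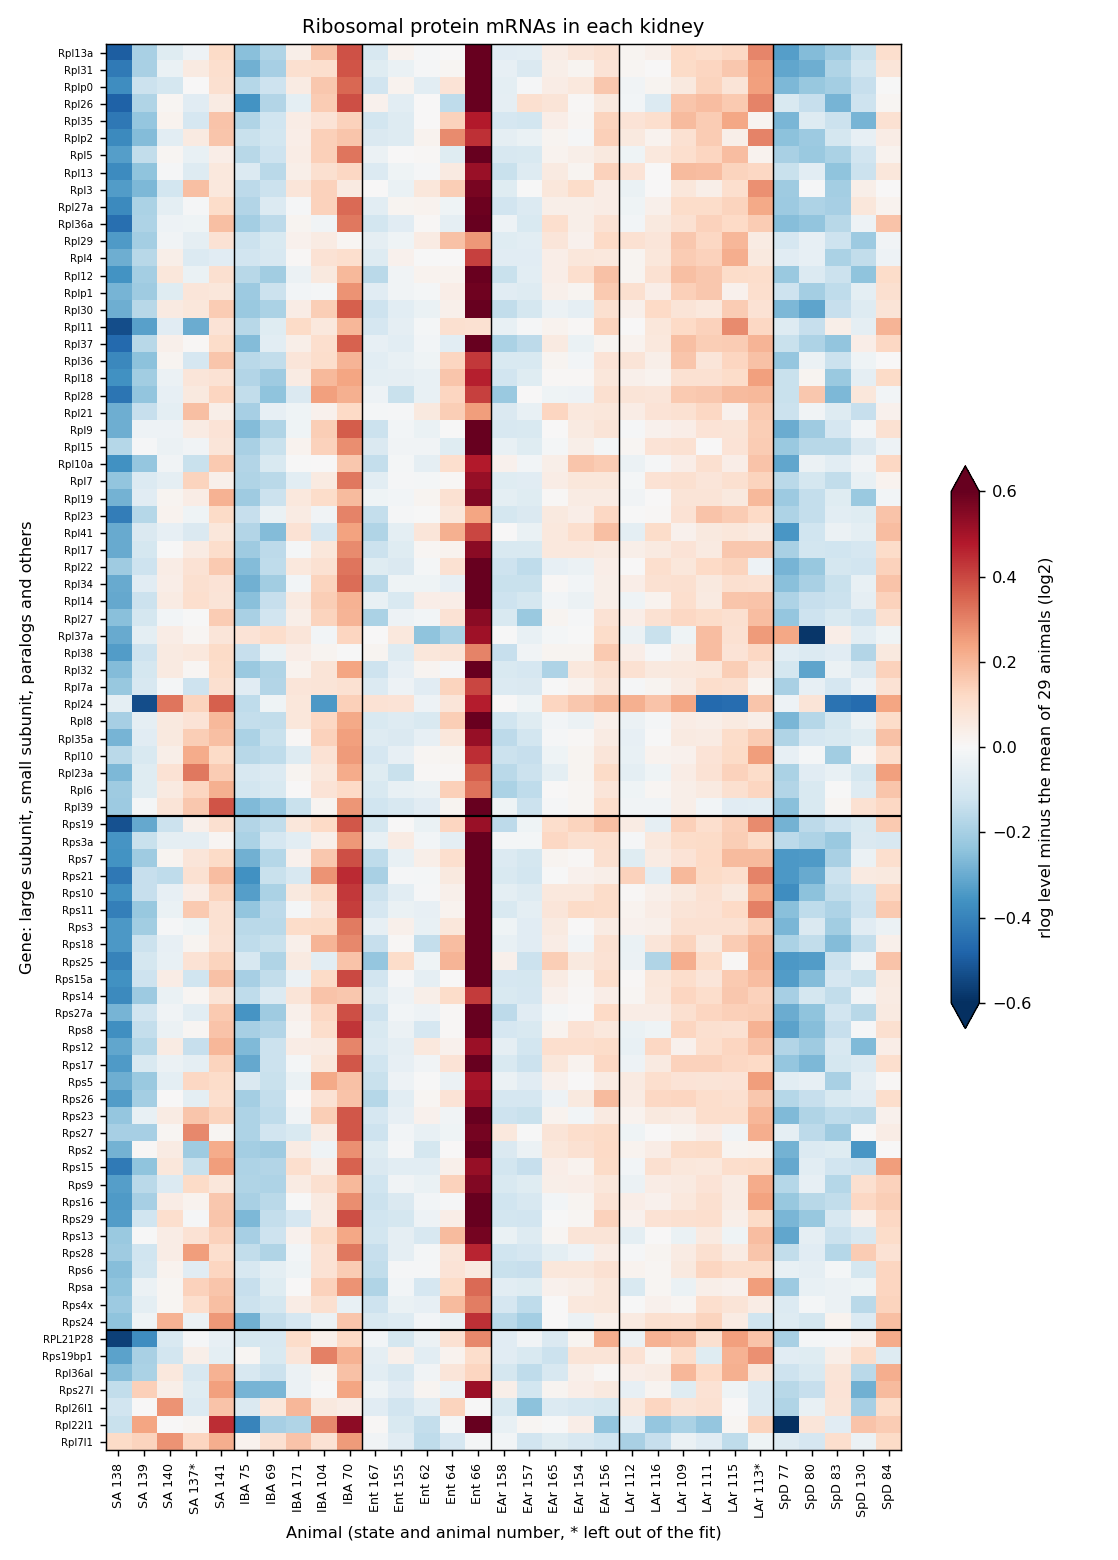
Levels of 82 of the 83 genes (rows) in the 31 kidneys (columns, ordered within each state by the core RP mean), each as the rlog level minus that gene's mean over the 29 fitted animals (log2, colours end at ±0.6). Rows run from core large subunit to core small subunit to the 7 other symbols, ordered by seasonal difference, and columns with * were left out of the fit. Whole columns share a colour across the core RPs, while Rpl7l1 in the last row follows another pattern.

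Ent 66 lay above every other Ent animal in 74 of the 76 core RPs, by 0.59 log2 units on average (50.8% on the linear scale), with 0.56 for the large and 0.63 for the small subunit. IBA 70 lay above every other IBA animal in 69 of the 76, by 0.31 on average. SA 138 lay below every other fitted SA animal in 75 of the 76, by 0.32 on average (difference -0.32). The median shift over all genes in these animals lay between -0.0053 and 0.0050, but library-size normalization holds such a median near 0 in any animal. Other quantities moved with them. The proximal tubule marker mean was 0.66 lower in Ent 66 (difference -0.66) and 0.47 lower in IBA 70 (difference -0.47) than in their groups, and 0.03 higher in SA 138. It was also lower than in their groups in SpD 130 (difference -1.58), whose core RP mean was only 0.02 higher, and in LAr 113 and SA 137 (differences -0.96 and -1.07). The macrophage marker mean of IBA 70, 8.75, was the highest of the IBA animals, the others of which had 7.58 to 7.96. In distal convoluted tubule and principal cell markers Ent 66 (13.08 and 12.34) and IBA 70 (12.93 and 12.14) were lowest of their groups. Ent 66 was also lowest in endothelial (10.68), fibroblast (9.07) and lymphocyte (9.05) markers, and highest in intercalated cell markers (11.14). The remaining marker means of both animals lay within their groups. The part of tissue makeup in the RP level was not tested. Ent 66 was also 0.25 higher in the translation factor and TOP mRNA mean and 0.23 higher in the mitochondrial RP mean, but 0.08 lower in the biogenesis factor mean (difference -0.08). LAr 113 and SA 137 stood 0.09 and 0.11 above their groups in the core RP mean.

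Few RP mRNAs differed across the 6 states. Of the 83 genes, 3 were called across states, against 46.1% of all genes tested. Rpl7l1 had the lowest q (limma, q = 0.000475) and was the only gene of the 83 under the study's threshold of 0.001, which 9.34% of all genes passed. It did not pass that threshold in experiment 2 alone (q = 0.00121), with animals centred to a common median (q = 0.00182), or without LAr 112, LAr 115, SA 140 or SA 141 (limma, q up to 0.00189). The others were Rpl29, a large subunit protein (limma, q = 0.0259), and RPL21P28 (limma, q = 0.038), both named after their values were seen because the count is small. Among core RPs, 1 of 46 large subunit and 0 of 30 small subunit genes were called by limma, 2 and 0 of them with an unadjusted p under 0.05. The residual spread of core RPs was close to that of other genes, with a median residual SD of 0.17 against 0.16 over all genes. The state means of a core RP ranged over 0.08 to 0.34 log2 units with a median of 0.23, and 73.4% of all genes had a wider range than that median. The count was 5 without IBA 75 or without SA 141 and 1 without LAr 115.

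Between the hibernation and the active season the median difference of the RP mRNAs was 9.38%, and 17 of the 83 rose past the test. In the comparison of the mean of the 4 hibernation states with the mean of SA and SpD, 77 of the 83 genes were higher in hibernation and the median difference was 0.13, against 0.0002 over all genes. The median was 0.13 for the 46 core large subunit genes and 0.14 for the 30 core small subunit genes. Limma called 18 of the 83, or 21.7% (33.4% of all genes were called), of which 17 rose (16.6% of all genes) and 1 fell (16.8% of all genes). No RP gene passed the study's threshold of 0.001, which 9.73% of all genes passed. Because the core RPs shift together in each animal, the 77 are not independent observations of a rise.

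The season's count rested on few active animals and on the animals of experiment 1. Limma called 2 genes (Rpl29 higher and Rpl7l1 lower) without SA 138, 4 without SA 139, 9 without SpD 83 and 11 without SpD 77. In experiment 2 alone it called 3 (Rpl29 and Rps3a higher, Rpl7l1 lower) and the median of the 83 was 0.04. Experiment 1 held no SA, EAr or LAr animal, so this comparison could not be made within it. Without Ent 66 and IBA 70, an alternative chosen after seeing the data, 20 genes were called with a median of 0.08. Over all 12863 genes, 3666 were called without SA 138, 3732 without SA 139 and 5022 in experiment 2 alone. Without Ent 66 and IBA 70 it was 5071 of all genes, against 4294 in the main fit. Some marker genes of kidney cells also differed with season. Called lower in hibernation (16.8% of all genes) were 2 of 5 proximal tubule, 3 of 4 endothelial, 2 of 3 fibroblast and 2 of 3 collecting duct principal cell markers. Of the loop of Henle and the intercalated cell markers 1 of 2 each was called lower. No macrophage (3), distal convoluted tubule (1) or lymphocyte (1) marker was called. None was called higher, but 2 of the 5 proximal tubule markers had higher values in hibernation. The proximal tubule marker mean ranged from 15.01 to 15.34 in SA and from 13.40 to 15.21 in SpD, and lay at 13.63 to 14.54 in IBA, 13.97 to 15.01 in Ent, 14.51 to 15.01 in EAr and 14.34 to 14.84 in LAr. Their part in the RP difference was not tested.

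**Figure D3:**
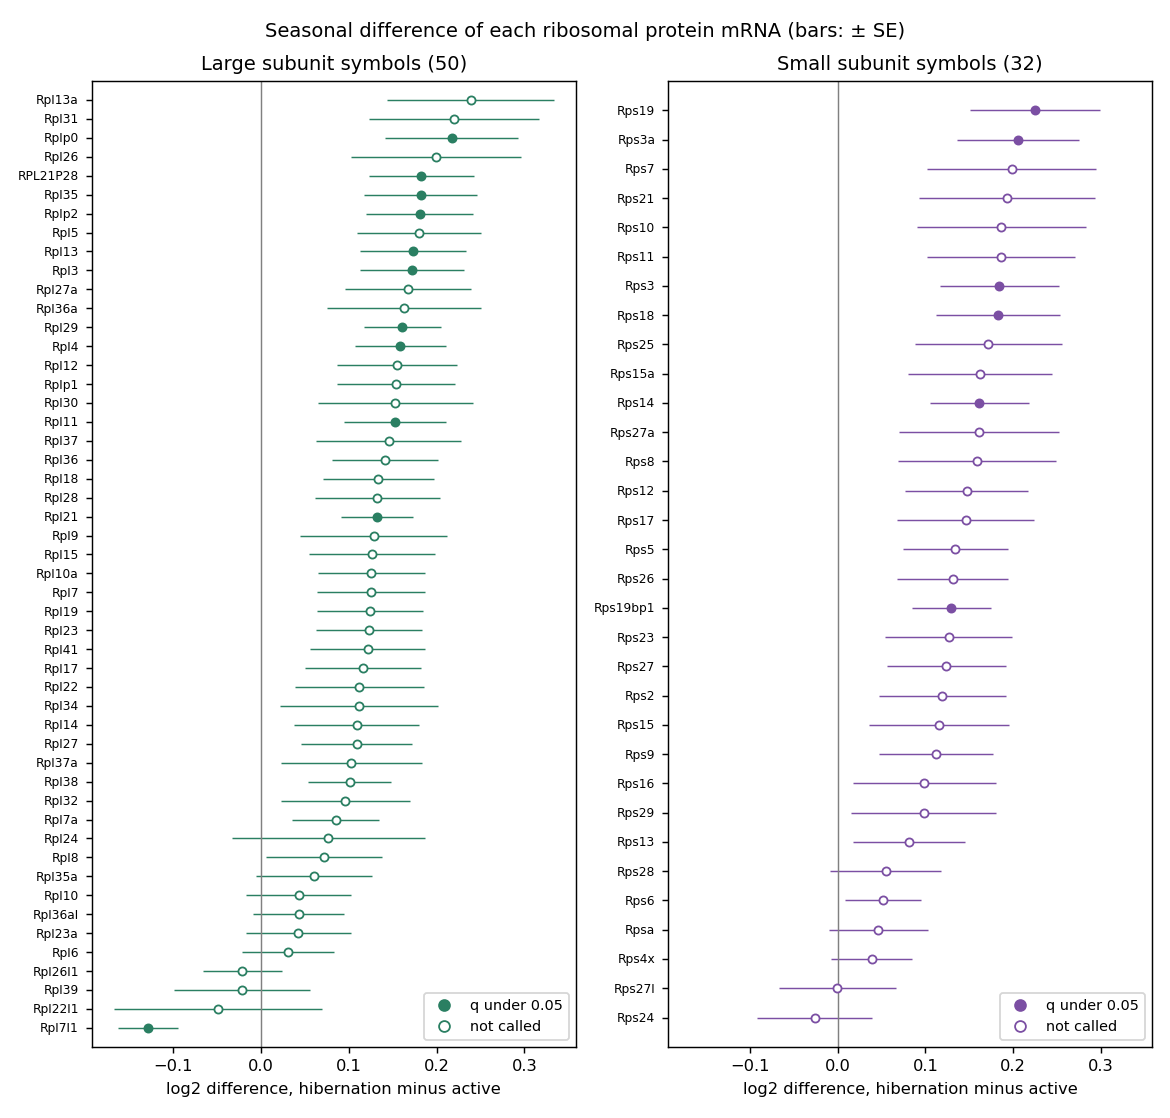
Seasonal difference (hibernation minus active, log2, horizontal axis) of 50 of the 51 large (left) and 32 small (right) subunit symbols, with bars of ± SE from the limma model. Filled points have q under 0.05, 16 above 0 and Rpl7l1 below 0, and most open points also lie above 0.

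Rps19, a small subunit protein needed for processing of the small subunit's rRNA and mutated in Diamond-Blackfan anaemia, had the largest increase among the called genes. Its level was 12.72, 12.93, 13.11 and 13.33 in SA and 12.95, 13.08, 13.11, 13.15 and 13.39 in SpD. In the hibernation states it was 13.06 to 13.61 in IBA, 13.13 to 13.75 in Ent, 13.08 to 13.42 in EAr and 13.18 to 13.38 in LAr. The seasons overlapped, with SA 138 lowest and Ent 66 highest. The difference was 0.23 ± 0.07 (SE, limma, q = 0.0217), and it was 0.11 with q = 0.214 in experiment 2 alone. It lost its call also without SA 138 (q = 0.0769) or SA 139 (q = 0.062).

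The ribosomal stalk, the flexible arm of the large subunit that recruits translation factors, is built from Rplp0 with pairs of Rplp1 and Rplp2. Rplp0 had the second largest increase among called genes. Its level was 14.46, 14.70, 14.73 and 14.93 in SA and 14.56, 14.60, 14.63, 14.69 and 14.83 in SpD, against 14.66 to 15.18 in IBA, 14.72 to 15.54 in Ent, 14.77 to 14.99 in EAr and 14.81 to 14.97 in LAr. The hibernation animals lay within or above the active range. The difference of Rplp0 was 0.22 ± 0.08 (SE, limma, q = 0.0291), but 0.12 with q = 0.0926 in experiment 2 alone, and the call was lost without SA 138, SA 139, SpD 80 or SpD 83. Rplp2 rose by 0.18 ± 0.06 (q = 0.025), a call lost in experiment 2 alone and without SA 138, SA 139 or SpD 80, and Rplp1 differed by 0.15 ± 0.07 without passing the test (limma, q = 0.0807).

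Rpl5 and Rpl11 bind the 5S rRNA, and outside the ribosome they inhibit Mdm2 and so stabilise p53. Rpl11 had levels of 10.83 to 11.44 in SA and 11.22 to 11.57 in SpD, and of 11.19 to 11.65 over the hibernation states. Its difference of 0.15 ± 0.06 passed narrowly (limma, q = 0.0471) and lost the call in 21 of the 29 fits that left out an animal and in experiment 2 alone (q = 0.322). The row used for Rpl5 differed by 0.18 ± 0.07 with q = 0.0524 (limma), just short of a call. Its q ran from 0.029 to 0.149 over the 29 fits that left out an animal, so some of them called it. Rows of Rpl5 that were not used differed by 0.21 (limma, q = 0.0273), 0.19 (q = 0.0181) and 0.18 (q = 0.061). Rpl10, a protein of the peptidyl transferase side of the large subunit that joins late in assembly, had a difference of 0.04 ± 0.06 (q = 0.61).

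The small subunit proteins of the fixed set ranged widely in their seasonal difference. Rps3, which lines the mRNA entry channel, rose by 0.18 ± 0.07 (limma, q = 0.0386), and lost the call in 8 of the 29 fits that left out an animal and in experiment 2 alone (q = 0.0885). Rps6, the S6 kinase substrate read as a sign of mTORC1 activity by its phosphorylation, had a difference of 0.05 ± 0.04 (q = 0.374). Rpsa, near the mRNA exit, had 0.05 ± 0.06 (q = 0.553), and Rps4x 0.04 ± 0.05 (q = 0.54). Rps27a, which is made as a fusion with ubiquitin, differed by 0.16 ± 0.09 (q = 0.178). Rps27a thus came near the difference of Rps3 but with a larger SE.

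Other called core RPs, named after their values were seen, included Rpl3, Rpl4, Rpl13, Rpl21, Rpl29 and Rpl35 of the large and Rps3a, Rps14 and Rps18 of the small subunit, with differences of 0.13 to 0.21. Rpl29, the 1 core RP called both across states and between seasons, had levels of 13.07, 13.21, 13.39 and 13.50 in SA and 13.19, 13.28, 13.31, 13.36 and 13.39 in SpD. It had 13.48, 13.50, 13.54, 13.57 and 13.61 in LAr, so that every SpD animal lay below every LAr animal. In the other states it had 13.28 to 13.46 (IBA), 13.36 to 13.67 (Ent) and 13.34 to 13.53 (EAr). Its seasonal difference was 0.16 ± 0.04 (SE, limma, q = 0.00707). Across states Rpl29 lost its call without LAr 115 (q = 0.0542) and in experiment 2 alone (q = 0.0756). Rpl13a had the largest difference of all 83, 0.24 ± 0.09, without passing the test (limma, q = 0.0553). At the other end, Rps24 (difference -0.03, q = 0.782) and Rpl39 (difference -0.02, q = 0.85) were the only core RPs not higher in hibernation.

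Rpl7l1 departed from the core RPs. It is a paralog of Rpl7 that takes part in early large subunit assembly and is not found in the finished ribosome. Its level was 11.18, 11.20, 11.28 and 11.33 in SA, with the left-out SA 137 at 11.19. In IBA it was 11.09, 11.15, 11.15, 11.23 and 11.32. Homeothermic summer animals and interbout aroused animals thus held the higher levels. Ent animals had 10.91, 10.97, 11.00, 11.04 and 11.05. EAr animals had 10.94, 10.95, 10.97, 10.99 and 11.05. LAr animals had 10.87, 10.91, 10.93, 10.99 and 11.03, with the left-out LAr 113 at 11.04. Every Ent, EAr and LAr animal lay below every SA and IBA animal. SpD animals, at 10.96, 10.99, 11.03, 11.16 and 11.18, overlapped with Ent, EAr, LAr and IBA.

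Rpl7l1 fell from IBA to Ent (difference -0.20 ± 0.06, SE, limma, q = 0.0182) and was higher in IBA than in LAr by 0.26 ± 0.06 (q = 0.00442). In hibernation as a whole it was lower than in the active season (difference -0.13 ± 0.03, q = 0.00518). The change from IBA to Ent lost its call without IBA 70 (q = 0.0563) and within experiment 2 (difference -0.17, q = 0.274) or experiment 1 (difference -0.21, q = 0.376), with the same sign in both. Within the experiments only 13 (experiment 1) and 33 (experiment 2) of all genes were called in this comparison, against 1689 in the main fit. The call of Rpl7l1 was also lost in a fit of these 2 groups alone (limma, q = 0.203) and with animals centred to a common median (q = 0.0583). The call across states and those against LAr and between seasons remained in each of the 29 fits that left out an animal, while that against LAr was lost in a fit of these states alone (q = 0.15). Ent 66, so high in the core RPs, had the level of the other Ent animals in Rpl7l1, 11.05 against up to 11.04. Rpl7 itself, a core large subunit protein, had 14.03 ± 0.11 in SA (SD, n = 4), 14.11 ± 0.20 in IBA, 14.21 ± 0.24 in Ent, 14.12 ± 0.07 in EAr, 14.18 ± 0.05 in LAr and 14.03 ± 0.07 in SpD (n = 5 each), and its seasonal difference was 0.13 ± 0.06 (q = 0.122). A test of the difference between Rpl7l1 and Rpl7 was not made.

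**Figure D4:**
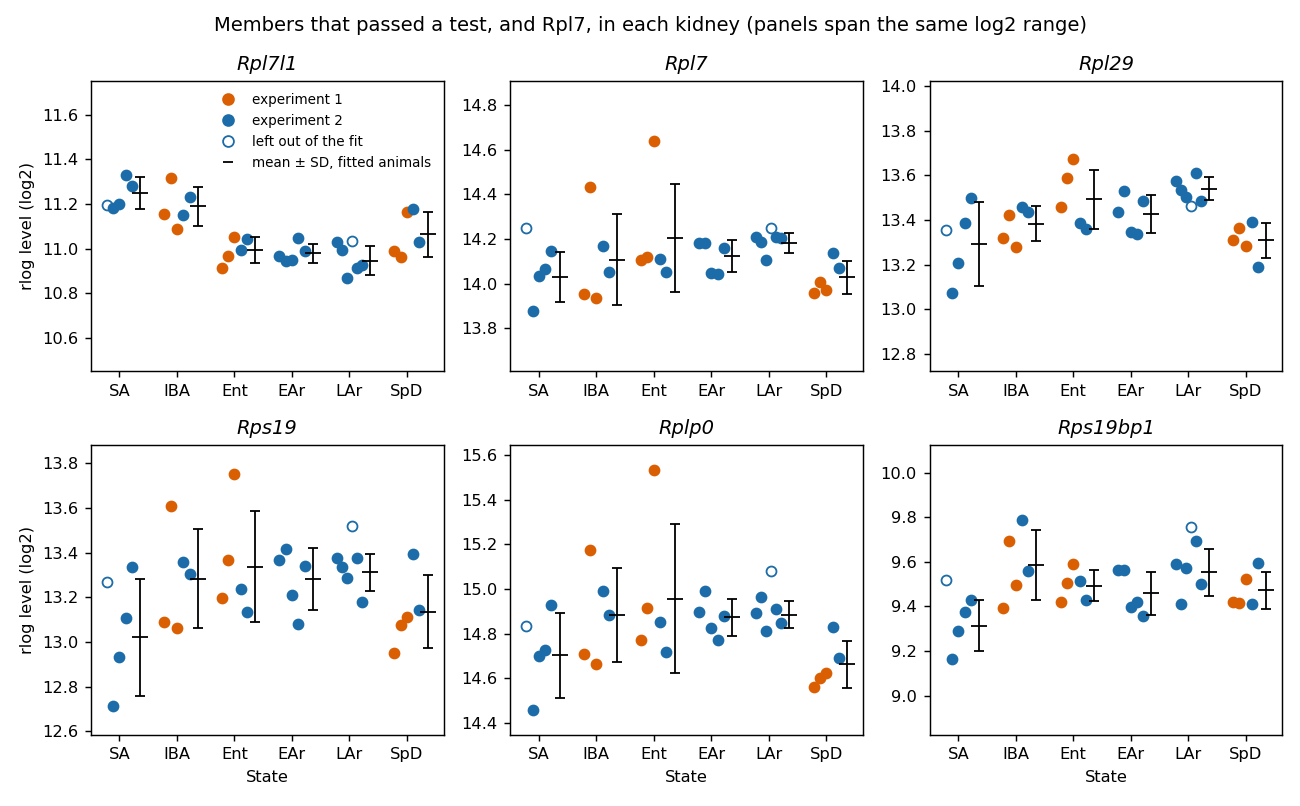
Levels (rlog, log2) of 6 genes in each kidney by state, with vertical axes of equal span. Filled points are fitted animals coloured by experiment, open points LAr 113 and SA 137, and bars the mean ± SD of the fitted animals. Rpl7l1 is high in SA and IBA and low in Ent, EAr and LAr, whereas Rpl7, Rps19 and Rplp0 have their highest point in Ent 66.

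The other paralogs were not called in any comparison. Rpl22l1, which can take the place of Rpl22, had the widest scatter, with 9.18 ± 0.25 in SA (SD, n = 4) and 8.90 ± 0.11 in LAr (n = 5), and its seasonal difference was -0.05 ± 0.12 (limma, q = 0.773). Rpl22 differed by 0.11 ± 0.07 (q = 0.25). Rpl26l1 had -0.02 ± 0.05 (q = 0.735) and Rpl26 0.20 ± 0.10 (q = 0.116). Rpl36al had 0.04 ± 0.05 (q = 0.55) and Rpl36a 0.16 ± 0.09 (q = 0.155). Rps27l, a p53 target, had -0.0002 ± 0.07 (q = 0.999) and Rps27 0.12 ± 0.07 (q = 0.162). In each of these pairs the paralog had the lower value, with no test of the difference within a pair.

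Rps19bp1, which encodes a nucleolar protein that also enhances the activity of the deacetylase Sirt1, was the 1 gene of the 83 that was called between IBA and SA. Its level was 9.16, 9.29, 9.38 and 9.43 in SA, 9.52 in the left-out SA 137, and 9.39, 9.50, 9.56, 9.69 and 9.79 in IBA. It rose by 0.30 ± 0.08 (SE, limma, q = 0.013), while IBA 69 lay within the SA range. The call was lost in all 31 animals (q = 0.0514), without IBA 104 (q = 0.0809) and in a fit of these states alone (q = 0.215). Its seasonal difference was 0.13 ± 0.04 (q = 0.0289), lost in experiment 2 alone (q = 0.102), in all 31 animals and without SA 138, SA 139, SpD 80 or SpD 84.

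Between neighbouring states the core RPs moved by small amounts and no core RP was called. From SA to IBA, limma called 1 of the 83 (Rps19bp1), against 22.9% of all genes, and the median of the 83 was 0.06. That median was 0.006 without SA 138, 0.01 without IBA 70 and 0.12 without SA 141 or Ent 66. From IBA to Ent it called 1 (Rpl7l1), against 13.1% of all genes, with a median of 0.09. The median from IBA to Ent was -0.04 without Ent 66, 0.17 without IBA 70, 0.20 in experiment 1 alone and -0.09 in experiment 2 alone, so the direction of the core RPs from IBA into entrance turned with 1 animal and with the experiment. The difference between experiments was not tested.

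From Ent to EAr and from EAr to LAr no RP gene was called. From Ent to EAr limma called 0 of the 83 (0.257% of all genes were called) with a median of -0.07, and 0 of the 83 had an unadjusted p under 0.05. The median was -0.005 without Ent 66, -0.13 without Ent 155 and 0.07 in experiment 2 alone. From EAr to LAr it also called 0 (0.575% of all genes), with a median of 0.06 and 2 genes at an unadjusted p under 0.05. Between LAr and IBA it called 1 (Rpl7l1), against 18% of all genes, and the median of IBA minus LAr was -0.07, which became -0.02 without Ent 66 and -0.12 without IBA 70. From IBA to SpD it called 0 (11.9% of all genes) with a median of -0.10 and 1 gene at an unadjusted p under 0.05. The median of that comparison was -0.01 without IBA 70, -0.15 without IBA 75, -0.14 in experiment 1 alone and -0.01 in experiment 2 alone. SA and SpD, the active states, had 0 calls (10.5% of all genes) with a median of 0.03 for SA minus SpD and 3 genes at an unadjusted p under 0.05. The median of SA minus SpD was -0.02 without SA 141 and 0.10 without SpD 84, and in experiment 2 alone 2 genes were called lower in SA (RPL21P28 and Rps9) and the median was -0.09. These comparisons share states, so their medians are not independent.

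RP mRNAs did not pass the test between the sexes. Limma called 0 of the 83 (0.218% of all genes were called) and 4 had an unadjusted p under 0.05. All 83 had lower values in males, with a median difference of -0.08, against 0.004 over all genes, and the median was -0.05 without Ent 66 and -0.12 without IBA 70. Rps4x, whose gene lies on the X chromosome in mammals, had a difference of -0.13 ± 0.04 (limma, q = 0.514). The shared shift of each animal enters all of these values.

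Many RP genes have near-identical copies, between which the authors' counting may split reads. Of the 83 symbols, 16 had more than 1 row, with up to 4 rows each, and for 9 of the 83 the row used was named by its match to a human sequence, so these values are uncertain. The 26 rows not used had the same sign as a rise in hibernation in 22 cases, with 5 called higher and 0 called lower by limma (4 of the 26 had an opposite sign). All 4 Rpl5 rows were higher in hibernation, by 0.18 to 0.21. For 13 of the 16 symbols all rows had the same sign, and Rpl24, Rps24 and Rpl39 were the exceptions. The 3 rows of Rpl24 differed by 0.08, -0.11 and 0.30 between seasons, none called. Rps24 had 1 row 0.23 higher and 2 rows lower (differences -0.03 and -0.17), none called. Further RP genes fall outside the rule by their names. Fau, which is made as a fusion with a ubiquitin-like protein, had 12.74 ± 0.18 in SA (SD, n = 4) and 12.86 ± 0.03 in LAr (n = 5). Rack1, the scaffold protein of the small subunit head, had 13.65 ± 0.13 in SA and 13.67 ± 0.04 in LAr. Neither was called between seasons.

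In the main fit ribosome biogenesis factors had a course other than that of the core RPs. Of 90 ribosome biogenesis factors with a row, 31 were called higher (16.6% of all genes) and 5 lower (16.8% of all genes) in hibernation, with a median of 0.08. From SA to IBA 20 of the 90 rose (10.4% of all genes) and 0 fell (12.5% of all genes), with a median of 0.13. From IBA to Ent 16 fell (7.61% of all genes) and 0 rose (5.52% of all genes), with a median of -0.10. The core RP median of that comparison was 0.09, but it was -0.04 without Ent 66 and -0.09 in experiment 2 alone. Opposite movement of the 2 lists into Ent thus rested on Ent 66. The biogenesis list had its highest state mean in IBA. The mean level of the list was 9.66 ± 0.05 in SA (SD, n = 4), 9.80 ± 0.02 in IBA, 9.70 ± 0.04 in Ent, 9.72 ± 0.03 in EAr, 9.73 ± 0.04 in LAr and 9.67 ± 0.04 in SpD (n = 5 each). Every IBA animal, at 9.77 to 9.83, lay above every fitted animal of the other groups, while the left-out LAr 113 was at 9.84, above every IBA animal. The largest increase in hibernation was in Utp20, a factor of the small subunit processome (0.36 ± 0.11, limma, q = 0.014), and the largest decrease was in Polr1c, a subunit shared by RNA polymerases I and III (difference -0.30 ± 0.06, q = 0.000863). The 16 calls into Ent became 8 without IBA 75, 9 without Ent 66 and IBA 70, and 0 within either experiment. In that comparison only 13 of all genes were called within experiment 1 and 33 within experiment 2. The main fit, with more animals, called 1689. The 0 calls therefore cannot separate an absent change from a smaller number of animals. The 20 calls into IBA became 10 in all 31 animals, 13 without IBA 104 or SA 139 and 0 in a fit of these states alone.

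Translation factors and other TOP mRNAs had a course near that of the RPs. Of 17 with a row, 9 were called higher (16.6% of all genes) and 0 lower (16.8% of all genes) in hibernation, with a median of 0.11, and the 9 calls became 3 without SA 138 and 5 without SA 139. Eef1d, an exchange factor of elongation, had the largest increase (0.19 ± 0.06, limma, q = 0.0204), and its call was lost without SA 138 (q = 0.0622) or SA 139 (q = 0.0537). Of 77 RPs of the mitochondrial ribosome 12 were called higher and 7 lower in hibernation, 24.7% in all against 33.4% of all genes, with a median of -0.02, led by Mrps18b (0.22 ± 0.05, q = 0.00193) and Mrpl16 (difference -0.25 ± 0.04, q = 4.28e-05). The 19 calls became 11 without SpD 84 and 29 without Ent 66 and IBA 70. From SA to IBA 12 of the 77 mitochondrial RPs, or 15.6%, fell (12.5% of all genes) and 0 rose (10.4% of all genes), with a median of -0.10. Between the hibernation states their medians had the signs of the core RPs in the main fit. They were 0.08 from IBA to Ent, -0.05 from Ent to EAr, 0.05 from EAr to LAr and -0.09 from LAr to IBA. The core RP medians were 0.09, -0.07, 0.06 and -0.07 in the same order. Ent 66 was high in both lists, and the core RP signs were not stable. From IBA to Ent the core RP median was -0.04 without Ent 66. In experiment 2 alone it was -0.09 from IBA to Ent and 0.07 from Ent to EAr.

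**Figure D5:**
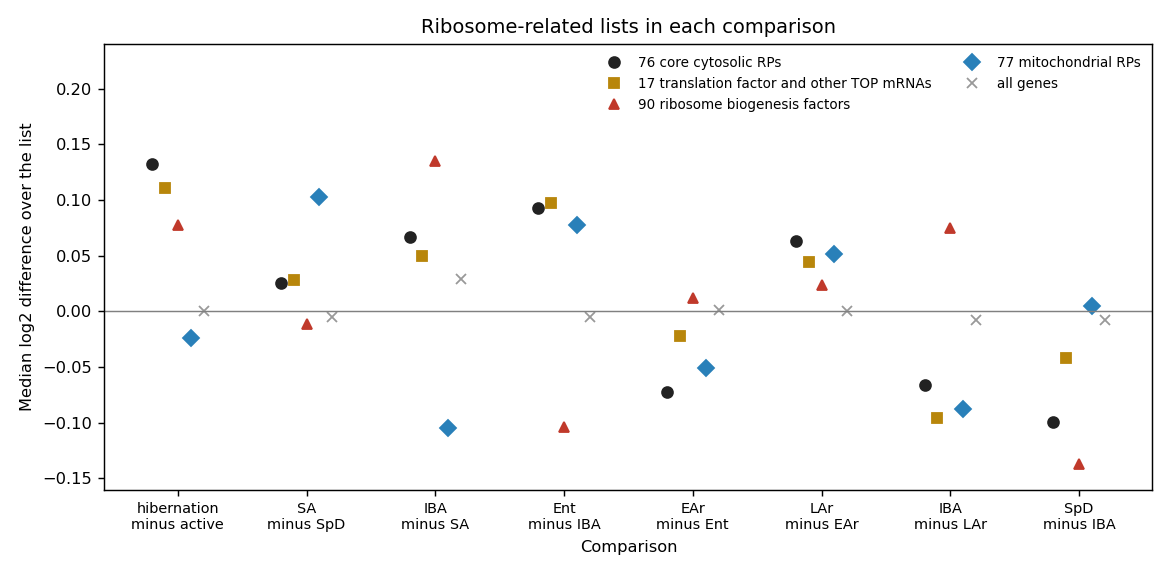
Median log2 difference (vertical axis) of the 76 core RPs, 17 translation factor and other TOP mRNAs, 90 ribosome biogenesis factors, 77 mitochondrial RPs and all 12863 genes in each comparison (horizontal axis, first state minus second). The biogenesis factor median is above 0 from SA into IBA and below 0 from IBA into Ent. The core RP median into Ent is above 0 in this fit, but was -0.04 without Ent 66 and -0.09 in experiment 2 alone. Comparisons share states.

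Regulators of RP translation and ribosome fate were called in both directions. Of 34 mTORC1 and LARP1 pathway genes 3 were called higher and 5 lower in hibernation, 23.5% in all against 33.4% of all genes (median -0.04, and 13 called in all in experiment 2 alone), with Myc, an activator of RP and rRNA gene transcription, highest (0.53 ± 0.10, limma, q = 0.00032) and Ddit4, an inhibitor of mTORC1, lowest (difference -0.66 ± 0.08, q = 2.02e-06). Of 27 ribosome quality control and ribosomal stress genes 7 were called higher and 6 lower, 48.1% in all (median 0.04). The p53 inhibitor Mdm4 rose by 0.26 ± 0.09 (q = 0.0253), a call lost without SA 140, SA 141 or SpD 83, and the cell cycle inhibitor Cdkn1a fell (difference -0.41 ± 0.11, q = 0.00657). Of 7 factors listed for the storage of idle ribosomes 3 were called higher and 1 lower, 57.1% in all (median 0.09), and the 4 calls became 2 in experiment 2 alone and without SA 138, SA 139, SpD 77 or SpD 80. Ifrd2, which sits on ribosomes that are not translating, rose by 0.23 ± 0.04 (q = 0.000223), and Marf1, listed with these factors although it is known as a regulator of RNA in the germ line, fell (difference -0.27 ± 0.05, q = 0.000428).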

How the data were processed

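Polyadenylated RNA of perfused, frozen kidney fragments had been sequenced by the authors in 2 experiments with different kits. In the authors' workflow cutadapt cleaned the reads, HISAT2 screened out those of mitochondrial origin, and Salmon estimated transcript levels on HiC_Itri_2. Genes were then filtered on their rlog level, the authors used DESeq2 for the rlog transformation and limma to subtract the difference between batches. The deposited table holds the resulting log2 values, so counts, depth and counting error cannot be given, and values of low genes are shrunk. From them limma 3.58.1 in R 4.3.3 was fitted over 12863 genes with terms for state, sex and experiment and an intensity trend, with Benjamini-Hochberg adjustment within each comparison at 0.05, 2-sided. The degree of freedom used up by the authors' batch correction is not accounted for. The fits were tested on simulated data. Figures used matplotlib 3.10.9.

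The RP genes and all lists, which come from general knowledge, were chosen with earlier results of these data known. Genes named are a fixed set of roles (Rplp0, Rplp1, Rplp2, Rps6, Rpl5, Rpl11, Rpsa, Rps3, Rps27a, Rpl10, Rps4x, Rps19), paralogs with their partners, Rps19bp1, genes under 0.001 across states, the 2 largest called changes each way per comparison, and the largest called seasonal change each way of each other list. Fau and Rack1 were added, and not every gene tested is named. The alternatives were all 31 animals, each experiment alone, no experiment term, median centring, the threshold 0.001, no intensity trend, genes with a mean of at least 8, 2 groups only, each animal left out, the mean of a symbol's rows and core RPs only. Transcript and protein sequences were not used here, so TOP tracts and protein lengths were not examined.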

Additional observations from a re-analysis of the deposited data

Results flagged for a closer look

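Animals far from the rest of their group were looked for, by Dixon's ratio of gap to range, in the core, large subunit and small subunit means, in the small minus large difference and in the RP genes named by rule, over all 31 animals. This covered 174 groups of values, and 20 were marked. Chance marks about 1 in 20 groups, and the values are not independent because RP genes move together.

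Ent 66 accounted for 16 of the 20. Its core RP mean was 13.74 against 13.23 in the next Ent animal, with 13.66 for the large subunit and 13.87 for the small subunit. Single genes marked in Ent 66 were the stalk proteins Rplp0 (15.54, next 14.91) and Rplp1 (15.07), Rpl5 (14.03), Rpl7 (14.64), Rpl10 (14.01), Rpl22 (12.88), Rpl22l1 (9.94, next 9.05), Rpl26 (14.47), Rpl36a (12.73), Rps3 (14.63), Rps27 (13.11), Rps27a (14.01) and Rps27l (10.97).

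EAr 157 was low in the paralogs Rpl26l1 (10.33, next 10.47) and Rps27l (10.35, next 10.48). The left-out LAr 113 was high in Rps27 (12.75, next 12.57) and Rpsa (13.90, next 13.69).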

How the results depend on the processing

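Counts of called RP genes that moved by over 1.5 times are given here. The count across states was 5 without Ent 66 and IBA 70 (chosen after seeing the data) and 1 at the 0.001 threshold. For SA minus SpD it was 2 in experiment 2 alone, and 1 with no term for experiment or without Ent 66 and IBA 70. For IBA minus SA it was 0 in all 31 animals, in 2 groups only and at 0.001, and 2 with no term for experiment. For Ent minus IBA it was 0 in either experiment alone, with animals centred to a common median, in 2 groups only and at 0.001. For IBA minus LAr it was 0 in 2 groups only and at 0.001. For hibernation minus active it was 3 in experiment 2 alone and 0 at 0.001. The causes were not tested, apart from fewer animals and a stricter threshold.

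Leaving out each animal gave 1 to 5 called across states, 2 to 25 between seasons, 0 to 3 for IBA minus SA, 0 to 1 for Ent minus IBA, 1 to 1 for IBA minus LAr and 0 to 0 in the others. Besides the animals named with the results, IBA minus SA gave 2 or more without IBA 75, SA 140, SA 141, Ent 155 or Ent 66. The 2 subunit medians moved by less than the spread between animals when the rows of a symbol were averaged or the paralogs left out. Over 1484 refits of 40 named results (a gene in a comparison) no called direction turned, 88 lost a call and 15 gained one. No paired analysis was possible because replicate numbers here are animal numbers, which no 2 groups share. Depth is unknown, and differences of the size of the median RP difference lie near 2 standard errors of a gene.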
